A study of Homo sapiens with 11 samples.

Results

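The genes of the proteasome, the barrel-shaped protease complex that degrades ubiquitin-tagged proteins, were followed in HCT116 human colorectal carcinoma cells that overexpress gelsolin. Members were all probes whose platform gene symbol starts with PSMA, PSMB, PSMC, PSMD or PSME, except the immunoproteasome genes PSMB8, PSMB9 and PSMB10, with the brightest probe standing for a gene. This gave 36 genes of the 18712 genes and unnamed probes on the arrays. PSMC3IP, a recombination cofactor, and PSME3IP1, which encodes a binding partner of PSME3, match by name only, which leaves 34 genes for subunits, activators and assembly chaperones, of which 33 were bright enough to be tested. PSMA8, the alpha subunit of the testis proteasome, had a normalized signal of 53.6 to 54.4 in the gelsolin-overexpressing lines and of 55.9 and 59.5 in the vector lines and was not tested. PSMB11, PSMC5, PSMD4, PSMD7, PSMD12 and PSMD13 have no probe of that symbol among those analysed and are not described here.

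The 4 gelsolin-overexpressing lines, named C1, C2, C3 and C8, are stable transfectants that carry the pIRES2-EGFP plasmid with the cDNA of human cytoplasmic gelsolin, and the 2 vector lines (V4 and V5) carry the empty plasmid, so that all lines went through transfection and stable selection. A line is 1 stable transfectant, and the study also calls the lines clones. Illumina HumanRef-8 beadchips were used to profile RNA of 2 independent harvests per line, and of V5 1 array is analysed, which gives 8 gelsolin arrays and 3 vector arrays. Beadchip 1 held the first harvest of C1, C2, C3, C8 and V4, and beadchip 2 the second harvests and the V5 array, which the labels number as replicate 1. Harvest and beadchip cannot be told apart in the other lines. Signals were divided by the median of the array, multiplied by the common median of 88.35 and, on the log2 scale, averaged per line. The lines were compared by limma, and the adjusted p of every gene comes from that fit over all 10267 genes tested.

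The 20S core particle is built from rings of alpha subunits (PSMA genes), which gate the channel, around rings of beta subunits (PSMB genes), of which PSMB5, PSMB6 and PSMB7 carry the active sites. The 19S regulatory particle (PSMC ATPases and PSMD subunits) binds ubiquitin chains, removes them and unfolds the substrate. The PSME genes encode activators that open the core without ubiquitin, and PSME1 and PSME2 form the heptameric PA28 ring that is induced by interferon gamma and is known for its part in making peptides for MHC class I.

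The dimmer probe of GSN, the transfected gene, was too dim to test. It differed by 0.0008 on the log2 scale, with 73.0 to 85.1 in gelsolin lines and 76.1 and 80.8 in V4 and V5. By its brighter probe GSN was above all 3 vector arrays in each of the 8 gelsolin arrays, as 11% of all genes tested were (line means 226, 197, 209.8 and 265 in C1, C2, C3 and C8, against 141 and 140.2 in V4 and V5, adjusted p = 0.00365 from limma). Its log2 fold change of 0.67 was 0.66 without V5 and 0.61 within beadchip 1, and passed in neither (adjusted p = 0.0593 and 0.196 from limma). The epithelial markers EPCAM, KRT8, KRT18, KRT19 and CDX2 were measured well above the array median, CDH1 lay near it and VIL1 was too dim to test. Of 7 markers of other cell types, 5 stayed between 48.3 and 77.6 in every line and were not tested. KRT19 was higher in the gelsolin-overexpressing lines (9808 against 4969, log2 fold change 1.00, adjusted p = 0.000628 from limma), as was VWF (123 against 75.2). COL1A1 was lower (110 against 163), and the summed signal of the 7 markers of other cell types was 523 to 563 in the gelsolin-overexpressing lines and 550 to 589 in the vector lines. Their part in the results below was not tested.

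Of the 33 proteasome genes tested, 2 were higher in the gelsolin-overexpressing lines and 0 lower by limma, that is PSME1 and PSME2, the alpha and beta subunits of PA28. Of all genes tested 12.8% were higher and 9.41% lower (2280 genes, 22.2%, in either direction), and the share of members called higher or lower was below these background shares. The other 31 members did not pass. The median log2 fold change was 0.04 over the 33 members and 0.02 over all genes tested.

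The PSME1 signal was 6184, 5311, 4300.4 and 5286 in C1, C2, C3 and C8, against 3017 in V4 and 2755 in V5. Every gelsolin line exceeded both vector lines, with C1 the highest and C3 the lowest of the 4. Over the single arrays the lowest, median and highest signal were 3927, 5287 and 6892 in the gelsolin arrays, against 2705, 2755 and 3364 in the vector arrays. The gelsolin-overexpressing lines averaged 5270.2 ± 769.7 (SD, n = 4) and the vector lines 2886 ± 185 (SD, n = 2). PSME1 was thus 1.81-fold higher, with a log2 fold change of 0.86 whose 95% interval ran over 0.56 to 1.16 (standard error 0.14, adjusted p = 0.00126 from limma). A second, dimmer PSME1 probe did not pass the filter on low signals, and its values give no check of the bright one.

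PSME2 took the same course, with 4519, 3837, 3136 and 3862 in C1, C2, C3 and C8, against 2536 in V4 and 2377 in V5. C1 was again the highest and C3 the lowest gelsolin line. Over the single arrays the lowest, median and highest were 2969, 3710.2 and 5353 in the gelsolin arrays, against 2377, 2485 and 2588 in the vector arrays, so the groups did not overlap for either gene (11% of all genes tested had every gelsolin array above every vector array). The gelsolin-overexpressing lines averaged 3839 ± 565 (SD, n = 4) and the vector lines 2456 ± 112 (SD, n = 2), which is 1.55-fold and 0.63 on the log2 scale (standard error 0.14, adjusted p = 0.00793 from limma).

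The highest array of PSME1 and of PSME2 was the second harvest of C1, and without this array their log2 fold changes were 0.82 and 0.57 (adjusted p = 0.000944 and 0.00692 from limma), an alternative chosen after seeing the data. Within beadchip 1, with V4 as its vector line, PSME1 had 0.52 and PSME2 0.42 (adjusted p = 0.256 and 0.310 from limma), and within beadchip 2 they had 1.05 and 0.79 (adjusted p = 0.00235 and 0.0149 from limma). Without V4 or without V5 the vector arm is 1 line, which these fits, like that of beadchip 1, assume to vary as the gelsolin lines do. PSME2 then had log2 fold changes of 0.68 and 0.59 but no longer passed (adjusted p = 0.0608 and 0.114), and PSME1 passed (0.0188 and 0.0383, all from limma).

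**Figure D1:**
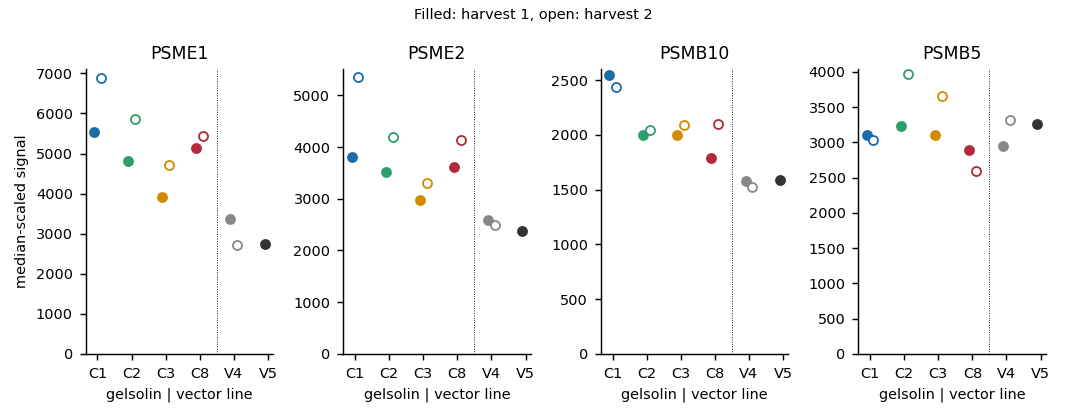
Median-scaled signal (linear scale from 0) of PSME1, PSME2, PSMB10 and PSMB5 on each array, for gelsolin lines C1, C2, C3 and C8 on the left of each panel and vector lines V4 and V5 on the right, with filled circles for the first harvest and open circles for the second. All gelsolin arrays of PSME1, PSME2 and PSMB10 lie above all vector arrays, whereas those of the catalytic subunit gene PSMB5 lie on both sides of the vector arrays.

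The promoters of PSME1, PSME2 and the immunosubunit gene PSMB10 are shown because these are the tested subunit and activator genes whose gelsolin arrays all lay above the vector arrays. Each sequence holds 300 bases, 250 before and 50 after the start of the gene, read 5′ to 3′ on the strand of the gene from RefSeq (GRCh38.p14), and capitals mark GAAA, any 2 bases and GAAA again on either strand, the paired half-sites of an interferon-stimulated response element. The windows are PSME1 at chr14:24135944-24136243 on the plus strand, PSME2 at chr14:24146561-24146860 on the minus strand and PSMB10 at chr16:67936801-67937100 on the minus strand.
PSME1: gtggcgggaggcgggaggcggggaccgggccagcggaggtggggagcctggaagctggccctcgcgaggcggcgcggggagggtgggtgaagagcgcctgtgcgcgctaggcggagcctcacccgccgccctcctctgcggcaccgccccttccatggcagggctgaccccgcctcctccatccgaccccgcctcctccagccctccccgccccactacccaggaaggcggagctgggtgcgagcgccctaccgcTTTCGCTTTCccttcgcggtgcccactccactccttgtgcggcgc
PSME2: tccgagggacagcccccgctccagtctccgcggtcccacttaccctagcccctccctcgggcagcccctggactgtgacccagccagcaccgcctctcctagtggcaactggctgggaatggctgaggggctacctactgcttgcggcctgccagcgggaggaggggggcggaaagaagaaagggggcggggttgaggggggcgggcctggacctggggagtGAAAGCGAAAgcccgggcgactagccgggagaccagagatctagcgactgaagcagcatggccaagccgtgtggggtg
PSMB10: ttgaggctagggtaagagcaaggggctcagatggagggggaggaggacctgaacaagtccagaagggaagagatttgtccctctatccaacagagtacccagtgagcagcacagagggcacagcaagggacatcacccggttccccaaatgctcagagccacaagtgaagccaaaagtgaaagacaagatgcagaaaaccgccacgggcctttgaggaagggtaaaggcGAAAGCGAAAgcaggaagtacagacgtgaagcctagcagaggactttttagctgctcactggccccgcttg

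The PSME1 and PSME2 windows lie 10.3 kb apart on opposite strands. The match runs over positions 6 to 15 after the PSME1 start on the reverse strand, from -28 to -19 before the PSME2 start and from -21 to -12 before the PSMB10 start. On its own strand it reads GAAAGCGAAA in all 3 genes. Such a pair of half-sites was found in 3.57% of the 35116 promoters of the table and in PSME1, PSME2, PSMA4 and PSMB4 among the 29 members with a promoter there, and the letters shared by the 3 genes, which are 1 form of it, in 35 promoters (0.0997%). The paired motif was added after the values were seen and the shared letters were read from the PSME2 promoter, so their presence in these genes is no independent support. A match is a description of the letters, not a site that was measured.

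PSMB10, an inducible catalytic subunit that replaces PSMB7 in the immunoproteasome, is outside the members by rule and is given beside them. Its signal was 2495, 2022, 2047 and 1941 in C1, C2, C3 and C8, against 1555 in V4 and 1585 in V5. All gelsolin arrays lay above all vector arrays, as in 11% of all genes tested. The log2 fold change of the lines was 0.43 (standard error 0.13, adjusted p = 0.0318 from limma). The call was lost without C1, V4 or V5 (adjusted p = 0.0655, 0.184 and 0.192 from limma) and within beadchip 1 (0.425). The brightest probe of PSMB8, which replaces PSMB5, gave 73.0 ± 2.34 (SD, n = 4) in gelsolin-overexpressing lines, against 63.6 ± 1.76 (SD, n = 2) in vector lines. The gelsolin arrays of this probe (68.4 to 77.3) lay above its vector arrays (61.9 to 64.8), as in 11% of all genes tested. A second, dimmer PSMB8 probe went the other way, with a log2 difference of -0.12. It averaged 54.2 in gelsolin-overexpressing lines and 59.3 in vector lines, and its arrays overlapped. Both probes were below the common median on all arrays, and the gene was not tested. PSMB9 had no probe among those analysed.

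The other activators did not pass the test. PSME3, the nuclear PA28 gamma, had 539.9, 551, 528 and 355 in C1, C2, C3 and C8, against 423 in V4 and 330.2 in V5. C1, C2 and C3 were above both vector lines and C8 between them (log2 fold change 0.38, standard error 0.19, adjusted p = 0.171 from limma). Without C8 it was 0.53 (adjusted p = 0.0165 from limma). PSME4, the large activator PA200, had 1322, 1653, 1807 and 1223 in the same gelsolin lines, against 1500.3 in V4 and 1392 in V5, and the groups overlapped (log2 fold change 0.04, adjusted p = 0.895 from limma).

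**Figure D2:**
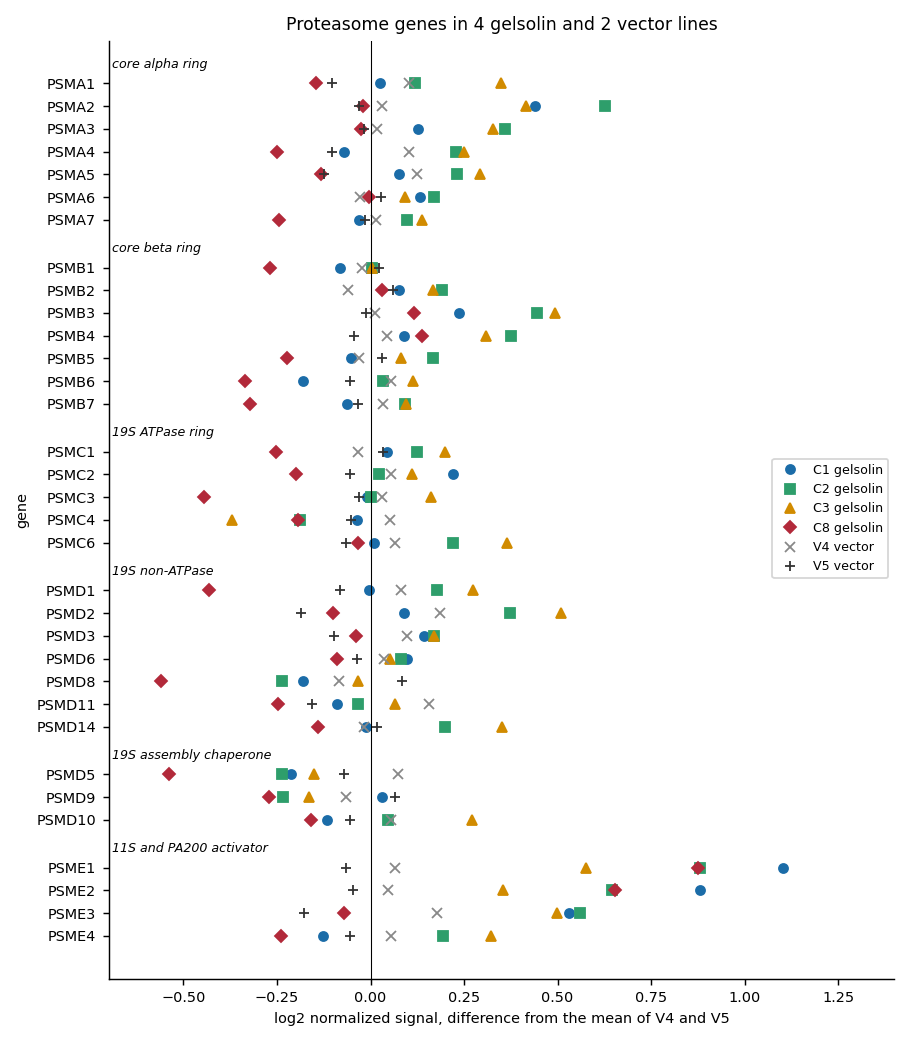
Difference of the log2 normalized signal of each line from the mean of V4 and V5 (x axis) for the 33 proteasome genes tested (y axis), grouped by role, with filled symbols for gelsolin lines and crosses for vector lines. PSME1 and PSME2 have all gelsolin lines to the right of both vector lines by 0.35 or more from the vector mean, and C8 (red diamonds) is the leftmost gelsolin line in most core and regulatory genes.

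Among the core and regulatory particle genes chosen by prefix, 0 of 26 (14 core and 12 regulatory) passed the limma test in either direction. At an unadjusted p under 0.05, 2 were higher (7.69%) and 0 lower, where 20.3% and 15.1% of all genes tested were. The 95% limma intervals of the 26 genes lay within -0.58 and 0.72 on the log2 scale, so that none of them reaches beyond 1.64-fold up or 1.49-fold down. Of the 26 fold changes, 17 were above 0 (65.4%, against 53.3% of all genes tested).

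The alpha ring, which gates the core, had a median log2 fold change of 0.10 over 7 genes. PSMA2 had 339, 386, 334 and 247 in C1, C2, C3 and C8, against 256 in V4 and 245 in V5. C8 lay at the level of the vector lines and the others above it (log2 fold change 0.37, standard error 0.16, adjusted p = 0.125 from limma), and without C8 the gene passed with 0.49 (adjusted p = 0.0139 from limma). PSMA3 had 2274, 2673, 2612 and 2044 in the same gelsolin lines, against 2108 in V4 and 2057 in V5, with C8 below both vector lines. PSMA5 had 3111, 3464, 3617 and 2694, against 3219 and 2708, and PSMA6 had 1562, 1603, 1520.5 and 1424, against 1399.8 and 1454. The groups overlapped in both, and the log2 fold changes were 0.20 for PSMA3, 0.12 for PSMA5 and 0.10 for PSMA6 (adjusted p = 0.311, 0.581 and 0.577 from limma). PSMA1, PSMA4 and PSMA7 had fold changes of 0.09, 0.04 and -0.01 on the log2 scale.

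The beta ring had a median of -0.01 over 7 genes. PSMB3, a beta subunit without an active site, was the core gene closest to the threshold, with 4148, 4794, 4959 and 3820.3 in C1, C2, C3 and C8, against 3556 in V4 and 3492 in V5. All gelsolin lines were above both vector lines, although 1 harvest of C8 (3529) lay among the vector arrays (log2 fold change 0.32, standard error 0.13, adjusted p = 0.0871 from limma). After quantile normalization PSMB3 passed (adjusted p = 0.0304 from limma), as it did without C8 (0.0205). PSMB4, another subunit without an active site, had 3496, 4262, 4074 and 3614, against 3393 and 3186, again with all gelsolin lines above both vector lines (log2 fold change 0.23, adjusted p = 0.189 from limma).

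The catalytic subunits had fold changes close to 0. PSMB5, which carries the chymotrypsin-like site, had 3075, 3581, 3377 and 2734 in C1, C2, C3 and C8, against 3123 in V4 and 3260.5 in V5. PSMB6, with the caspase-like site, had 2661, 3085, 3264 and 2391 in the same gelsolin lines, against 3133 and 2902. PSMB7, with the trypsin-like site, had 4199, 4669, 4683 and 3508, against 4487 and 4283. In each of them C8 was the lowest of all 6 lines, C2 and C3 were near or above the vector lines, and the log2 fold changes were -0.01, -0.09 and -0.05 (standard errors 0.13, 0.14 and 0.13, adjusted p = 0.976, 0.668 and 0.818 from limma). PSMB1 and PSMB2 had -0.08 and 0.12 on the log2 scale.

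In the ATPase ring of the base, which unfolds substrates, the median was 0.03 over 5 genes. PSMC4 had the smallest adjusted p, with 1033, 929.9, 819 and 927 in C1, C2, C3 and C8, against 1099 in V4 and 1023 in V5. C2, C3 and C8 lay below both vector lines and C1 between them (log2 fold change -0.20, standard error 0.13, adjusted p = 0.291 from limma). PSMC6, PSMC3 and PSMC2 had 0.14, -0.07 and 0.04 on the log2 scale (adjusted p = 0.502, 0.769 and 0.863 from limma), and PSMC1 had 0.03.

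Among the non-ATPase subunits the median was 0.04 over 7 genes. PSMD8, a lid subunit, had 1221, 1174, 1351 and 938 in C1, C2, C3 and C8, against 1305 in V4 and 1465 in V5, with 3 of the 4 gelsolin lines below both vector lines (log2 fold change -0.25, standard error 0.15, adjusted p = 0.251 from limma). PSMD2, the base scaffold that docks ubiquitin receptors, had 1491, 1815, 1996 and 1308 in the same gelsolin lines, against 1595 and 1234, and the groups overlapped (0.22, adjusted p = 0.410 from limma). PSMD14, the deubiquitinase that clips ubiquitin chains from the substrate, had 2483, 2873, 3192 and 2271, against 2472 and 2536 (0.10, adjusted p = 0.651 from limma). PSMD3 had 228, 232, 232 and 201, against 221 and 193 (0.11, adjusted p = 0.525 from limma). PSMD1, PSMD6 and PSMD11 lay between -0.08 and 0.04.

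The genes of the 19S assembly chaperones, which help to build the base and leave the finished particle, had a median of -0.16 over 3 genes. PSMD5 had 288, 283, 300.4 and 229.6 in C1, C2, C3 and C8, against 351 in V4 and 317 in V5. All gelsolin lines were below both vector lines (log2 fold change -0.29, standard error 0.13, adjusted p = 0.145 from limma), and after quantile normalization the gene passed as lower (-0.35, adjusted p = 0.0469 from limma). PSMD9 and PSMD10 had -0.16 and 0.01 on the log2 scale (adjusted p = 0.268 and 0.965 from limma).

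The median log2 fold change was 0.09 in the core and 0.03 in the regulatory particle, a difference of 0.06. In C1, C2, C3 and C8 this difference was 0.05, 0.08, 0.04 and 0.06, with V4 at -0.03 and V5 at 0.03 relative to their mean. The core median was thus above the regulatory median in all 4 gelsolin lines. This held for the alpha ring but not for the beta ring. The beta ring medians were -0.05, 0.17, 0.11 and -0.22 in C1, C2, C3 and C8. The regulatory medians were 0.002, 0.10, 0.17 and -0.20, so the beta ring was above them only in C2. Under median scaling the amounts were of the size that separates the vector lines, and the lines share the vector mean. After quantile normalization the difference was 0.05, 0.10, 0.05 and 0.07 in C1, C2, C3 and C8, with V4 at -0.008 and V5 at 0.008. Under median scaling it was 0.004 within beadchip 1 and 0.13 within beadchip 2. The difference was given no test because the members share their arrays.

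**Figure D3:**
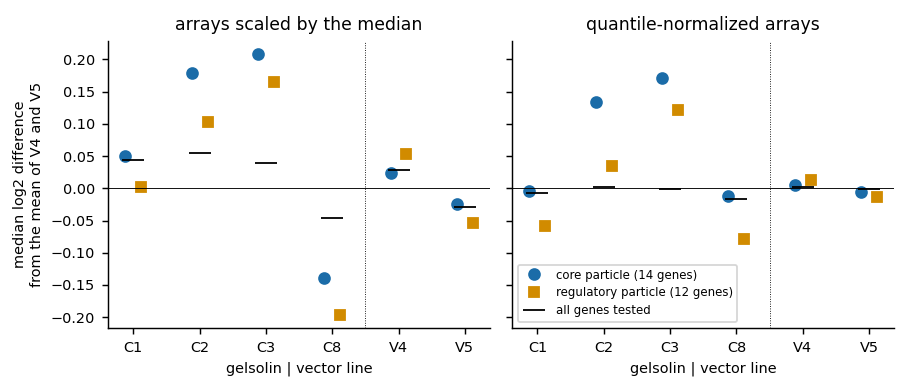
Median log2 difference from the mean of V4 and V5 (y axis) over the 14 core genes (circles), the 12 regulatory genes (squares) and all genes tested (dashes) in each line (x axis, gelsolin lines left), with arrays scaled by their median in the left panel and quantile-normalized in the right. C8 is at -0.14 and -0.20 for core and regulatory genes in the left panel and at -0.01 and -0.08 in the right panel.

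The gelsolin lines also differed from each other. The median of the 26 core and regulatory genes relative to the vector mean was 0.02 in C1, 0.17 in C2, 0.17 in C3 and -0.17 in C8, where the median of all genes tested was 0.04, 0.05, 0.04 and -0.05. C8 was the lowest of the 4 gelsolin lines in 24 of the 26 genes (46.9% of all genes tested and 65.3% of the 2054 genes with a signal of 1000 or more) when arrays were scaled by the median, but in 13 of 26 after quantile normalization (29.1% of all genes). Under median scaling both C8 arrays were below the other 6 gelsolin arrays in 18 of the 26 genes (69.2%), against 15.5% of all genes tested. The difference of C8 from the mean of C1, C2 and C3 had a median of -0.31 over the 26 genes and -0.10 over all genes, and of -0.14 and -0.01 after quantile normalization. PSMD1 (-0.58), PSMA2 (-0.51) and PSMC3 (-0.50) were farthest below, and PSMC4 (0.005) was the exception above 0. C3 was the highest gelsolin line under median scaling in 16 of the 26 genes (26.9% of all genes). PSME1 and PSME2 stood at 0.02 and 0.03 in the difference of C8 from the mean of C1, C2 and C3, so C8 lay near that mean there. PSME3 stood at -0.60 and PSME4 at -0.37. This comparison of lines was chosen after the values were seen and has no test.

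Of 7 binding partners tested, 2 were higher and 1 lower (12.8% and 9.41% of all genes tested). UCHL5, a deubiquitinase that docks on the regulatory particle through ADRM1, had 638, 583, 576 and 485 in C1, C2, C3 and C8, against 1005 in V4 and 987 in V5. All gelsolin arrays were below all vector arrays (9.23% of all genes tested were), and the log2 fold change was -0.81 (standard error 0.13, adjusted p = 0.00142 from limma), or 1.75-fold lower. Within beadchip 1 it was -0.91 and did not pass (adjusted p = 0.0646 from limma). Its docking partner ADRM1 had -0.24 (adjusted p = 0.214 from limma). SEM1, the smallest lid subunit, whose symbol does not carry the prefix, had 845, 893, 848 and 654, against 608 and 475. Its line means did not overlap, but 1 harvest of V4 (758) lay above both harvests of C8 (log2 fold change 0.58, standard error 0.15, adjusted p = 0.0195 from limma), and the call was lost without V5 (0.277) and within beadchip 1 (0.851). PAAF1, which binds the ATPases and is known to hold the regulatory particle off the core, had 404, 416, 509.9 and 510.0 in C1, C2, C3 and C8, against 337 in V4 and 294 in V5 (0.54, standard error 0.14, adjusted p = 0.0167 from limma). Its call was lost without V4 or V5 and within either beadchip (adjusted p = 0.0660, 0.210, 0.340 and 0.0551 from limma).

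Of 4 chaperones of core assembly tested, 1 was higher (12.8% of all genes tested). PSMG2, which pairs with PSMG1 to build the alpha ring, had 2129, 2597, 2446 and 2142 in C1, C2, C3 and C8, against 1828 in V4 and 1502 in V5 (log2 fold change 0.49, standard error 0.13, adjusted p = 0.0223 from limma). The line means did not overlap, while 1 harvest of V4 (2107) lay above 1 harvest of C8 (2056), and the call was lost without V4 or V5 (adjusted p = 0.0564 and 0.298 from limma) and within beadchip 1 (0.742). PSMG1 had -0.26 and POMP, which matures the core, 0.10 (adjusted p = 0.194 and 0.517 from limma). A second PSMG1 probe, slightly dimmer, passed the filter but was not tested. It had -0.37 on the log2 scale, and its gelsolin arrays (up to 1177) lay below its vector arrays (from 1189), as in 9.23% of all genes tested.

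Of 4 tested genes for control of proteasome genes 3 were lower and 0 higher by limma (9.41% and 12.8% of all genes tested). NFE2L1, the transcription factor that raises proteasome genes when the proteasome is inhibited, had 751, 616, 459.8 and 597 in C1, C2, C3 and C8, against 1324 in V4 and 1175 in V5. The 8 gelsolin arrays lay between 445 and 1111, with the second harvest of C1 at the top, and the vector arrays between 1175 and 1397, without overlap (log2 fold change -1.06, standard error 0.17, adjusted p = 0.00150 from limma). Within beadchip 2 the call of NFE2L1 was lost (-0.87, adjusted p = 0.0875 from limma). NFE2L2, the related factor of the oxidative stress response, had 1405, 1522, 1225 and 1103 in the same gelsolin lines, against 2043 and 2066 (-0.66, standard error 0.14, adjusted p = 0.00685 from limma), again with all gelsolin arrays below the vector arrays. Its call was lost without V4 or V5 and within either beadchip (adjusted p = 0.0714, 0.0911, 0.143 and 0.109 from limma). MAFG, a small partner protein of both factors, had 193, 172, 167 and 163, against 217 and 231 (-0.37, standard error 0.11, adjusted p = 0.0332 from limma), a call that was lost in 9 of 21 alternatives, among them the beadchip block (0.0552) and leaving out C2, C3, C8, V4 or V5 in turn (0.0519 to 0.251). NGLY1, the enzyme that removes sugar chains from NFE2L1, had -0.06 (adjusted p = 0.786 from limma), and DDI2, the protease that cleaves it, was too dim to test.

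**Figure D4:**
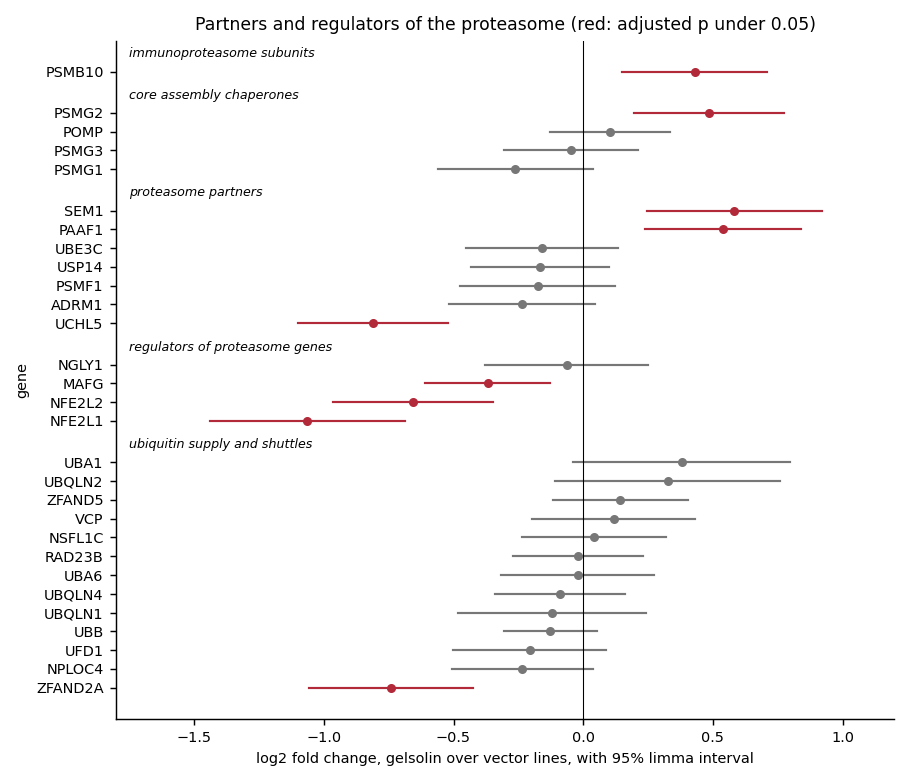
Log2 fold change of gelsolin over vector lines (x axis) with its 95% limma interval for tested genes of 5 lists around the proteasome (y axis), in red where the adjusted p is under 0.05. NFE2L1 is farthest to the left at -1.06 and SEM1 farthest to the right at 0.58.

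TGACNNNGC, the letters shared by sites of NFE2L1 and NFE2L2, was found on either strand in 10 of the 34 promoters of the 29 members in the table (29.4%, with several promoters for some genes) and in 5 of the 27 promoters of core and regulatory genes (18.5%), against 13.3% of all promoters. CCAAT was found in 44.1% of the 34 promoters, against 34.6% of all promoters. The motif of the nuclear respiratory factor NRF1, encoded by another gene that shares a name with NFE2L1, was found in 17.6%, against 5.78%. The promoters with this motif belong to PSMA4, PSMA6, PSMB4 and PSMD6. For PSMA4 and PSMA6 the same site is counted in more than 1 overlapping window, which raises this share. The TGACNNNGC promoters are those of PSMA4, PSMB3, PSMC4, PSMD1, PSMD3, PSMD5, PSMD9, PSME1, PSME2 and PSME4, whose log2 fold changes ran from -0.29 to 0.86. The promoter of PSMB3, the core gene closest to the threshold, is shown with its TGACNNNGC match (positions -104 to -96) and its CCAAT matches in capitals. It is chr17:38752491-38752790 on the plus strand, from the same table.
PSMB3: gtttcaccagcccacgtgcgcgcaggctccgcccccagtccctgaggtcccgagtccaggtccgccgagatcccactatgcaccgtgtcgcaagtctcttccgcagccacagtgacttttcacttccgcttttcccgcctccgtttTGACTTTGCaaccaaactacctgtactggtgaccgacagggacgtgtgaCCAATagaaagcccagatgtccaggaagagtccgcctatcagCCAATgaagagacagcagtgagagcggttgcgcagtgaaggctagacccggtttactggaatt

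Of 13 genes for ubiquitin supply and shuttling that were tested, 0 were higher and 1 was lower by limma (12.8% and 9.41% of all genes tested). ZFAND2A, a stress-induced factor that binds the proteasome, had 1139, 831, 949 and 833 in C1, C2, C3 and C8, against 1573 in V4 and 1539 in V5, with all gelsolin arrays below all vector arrays (log2 fold change -0.74, standard error 0.14, adjusted p = 0.00404 from limma). Its call was lost without V4 or V5 (adjusted p = 0.0567 and 0.0595 from limma) and within beadchip 1 (0.395). UBA1, the main ubiquitin-activating enzyme, had 0.38 and NPLOC4, a cofactor of VCP, -0.23 (adjusted p = 0.180 and 0.201 from limma).

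Of the genes that match the prefix by name only, PSMC3IP had a log2 fold change of 0.21 and PSME3IP1 of 0.06 (adjusted p = 0.289 and 0.765 from limma). Without V4 they were -0.04 and -0.05. Over the limma alternatives PSMC3IP ran from -0.04 to 0.57 and PSME3IP1 from -0.24 to 0.60.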

How the data were processed

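Intensity values were deposited for 20596 probes on 11 arrays, as mean bead signals on a linear scale that the authors exported from BeadStudio with no normalization across arrays. The authors also deposited ratio values, for which GeneSpring divided each chip by its 50th percentile and each probe by a baseline of the controls. On the log2 scale their distance from the median-scaled intensities is constant for a probe to within 3.46e-07. For background handling in BeadStudio the sources used here give nothing, and the lowest signal of an array was 34.2 to 41.9, so fold changes of dim probes are understated.

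Each array was divided by its median (75.7 to 105) and multiplied by the common median. Harvests were averaged per line as log2 values. Probes above the common median in at least 2 lines were kept, and the brightest probe stood for a gene. Gelsolin-overexpressing lines (4) were set against vector lines (2) in limma 3.58.1 under R 4.3.3, using lmFit and a robust eBayes with a trend, 2-sided, with p-values of the 10267 genes adjusted together by Benjamini-Hochberg and called under 0.05. The test was checked on simulated data. A positive fold change means a higher signal in gelsolin-overexpressing lines. V5 enters as 1 array. The p-values measure the spread between lines, which also holds variation between harvests and arrays. The number of lines, 4 gelsolin and 2 vector, limits the precision.

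The members and gene lists were chosen with earlier results of these data known. Named are, per role group, up to 4 members with the smallest adjusted p, the catalytic subunits and PSMD14, per other list up to 3 genes, and NFE2L1, POMP, the immunosubunits and GSN. Members outside this rule are given by their fold change, and some were chosen after their values were seen. Platform symbols were used, and promoters were matched by symbol to a RefSeq table (GRCh38.p14). Alternatives covered normalization, background, offset, filter, variance model, arrays in place of lines, blocks for the replicate number and beadchip, single beadchips, the one-way test of the methods, and leaving out each line. The harvest numbers were examined for pairing, with the limits given below. Wild-type cells and a further V5 array were not analysed here.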

Additional observations from a re-analysis of the deposited data

Results flagged for a closer look

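In 2 of the 42 named genes, 1 gelsolin line stood apart from the other 3 by more of the range over the 4 lines than Dixon's 95% critical value for 4 samples allows. In PSME3 the gap of C8 to the nearest line was 0.904 of the range (355 in C8, against 528 to 551 in C1, C2 and C3). In PSMD3 it was 0.865 (201 in C8, against 228 to 232). Chance flags about 1 in 20 such groups, and the 2 flags both concern C8, the line with the lowest signal in most core and regulatory genes under median scaling.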

How the results depend on the processing

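The choice of vector lines and beadchips limits these results most. PSME1 passed in 20 of 21 limma alternatives and PSME2 in 18, and no fold change of the 42 named genes that passed reversed in any of 23 settings. Of the 33 members, 0 were higher within beadchip 1 and 5 by the methods' one-way test without adjustment (PSMA2, PSMB3, PSMB4, PSME1 and PSME2), against 2 after Benjamini-Hochberg. Leaving out single lines gave 1 to 5 members higher, with 1 (PSME1) without V4 or without V5 and 5 without C8 (PSMA2, PSMB3, PSME1, PSME2 and PSME3). With quantile normalization, with or without normexp, 1 member (PSMD5) was lower and PSMB3 joined the higher ones.

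The core minus regulatory median was 0.0419 over arrays without a block and in both forms of the methods' test, 0.0437 with the beadchip block, 0.00448 within beadchip 1, 0.129 within beadchip 2, and 0.0169 to 0.0859 with single lines left out. The number of all genes past the threshold was 181 within beadchip 1, 1493 within beadchip 2, 3581 by the methods' test without adjustment, 800 without V4 and 557 without V5, in a range of 557 to 2522 over the lines left out. Single beadchips and left-out lines leave fewer arrays, and leaving out V4 or V5 leaves 1 vector line. The cause of these changes was not tested.

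Of the calls over all genes 57.6% were higher, but 50.9% after quantile normalization, 50.7% with normexp, 48.4% without a filter, 48.3% without V5 and 34.3% within beadchip 1. With the replicate block the fit called 1990 genes and 2 members, and of the named genes MAFG lost its call there (adjusted p = 0.0569 from limma). Equal numbers share only the harvest number and, except for V5, the beadchip. Deviations from the group mean had correlations between gelsolin lines and V4 of 0.0681 and 0.185. These are not separate checks, because the gelsolin deviations of the harvests mirror each other around their mean. The V4 deviations also hold the difference between V4 and V5, so the values cannot decide whether harvests are paired.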
